A study of Homo sapiens with 12 samples.

Results

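The response to reduced oxygen was examined in vehicle-treated T98-G cells, by comparing the libraries labelled hypoxia with those labelled normoxia. T98-G is an established human glioblastoma line that expresses the DNA repair protein MGMT. The adherent cells were kept for 48 h in growth medium with 0.1% DMSO (the solvent of the tested compounds), either at 1% oxygen or at 20% oxygen, with 3 independent experiments in each condition. These 6 libraries were taken, by treatment and oxygenation, from a series of 12, in which the other 6 came from cells given onametostat at 1 µM, which blocks the arginine methyltransferase PRMT5, at the same oxygen levels. DMSO was thus present in all of the 6 libraries, and all data came from 1 cell line and 1 time point, with no untreated cells. The sources do not state the direction of this contrast uniformly, so every direction given here follows the labels of the libraries. For genes that it names, the study reports the opposite direction. It gives ACKR3, NTRK3 and HMOX1 as increased and ITGA8, ADAMTS5 and BAMBI as decreased in hypoxia. Which direction is right was not settled.

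Cells sense low oxygen mainly through the prolyl hydroxylases of the EGLN family, which use oxygen to mark the alpha subunits of the hypoxia-inducible factors (HIF1A and EPAS1) for destruction by the VHL ubiquitin ligase. When oxygen is scarce, the alpha subunits persist, pair with ARNT and bind DNA elements with the core ACGTG, which raises the transcription of genes for glucose uptake, glycolysis, angiogenesis and pH control. In glioblastoma, hypoxic zones around necrosis are known for this programme, and many of its targets serve as markers of hypoxic tumour tissue.

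The promoters of 5 well-known HIF targets are shown, because these genes carried the same kind of element and still differed in their response. PPP1R3C (a glycogen-targeting subunit of protein phosphatase), CITED2 (a competitor of HIF for its coactivators) and DDIT4 (an inhibitor of mTORC1 signalling) rose in the libraries labelled hypoxia, whereas CA9 (a carbonic anhydrase of the cell surface) and BNIP3 (a mitophagy receptor) did not pass the test. Each sequence is the RefSeq window of GRCh38.p14 from 250 bases before to 50 bases after the start of the gene, read 5′ to 3′ on the strand of the gene. Capitals mark ACGTG or its reverse complement CACGT, and an E-box (CACGTG) holds both and was counted on both strands. The windows lie at chr6:139374599-139374898 (minus strand), chr10:91633022-91633321 (minus), chr10:72273674-72273973 (plus), chr9:35673678-35673977 (plus) and chr10:131981874-131982173 (minus).
CITED2: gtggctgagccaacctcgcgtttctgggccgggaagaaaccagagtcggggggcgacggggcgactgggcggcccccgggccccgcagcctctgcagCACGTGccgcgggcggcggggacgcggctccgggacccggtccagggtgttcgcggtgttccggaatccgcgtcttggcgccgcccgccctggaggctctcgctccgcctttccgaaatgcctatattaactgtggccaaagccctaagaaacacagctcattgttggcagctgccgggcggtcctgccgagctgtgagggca
PPP1R3C: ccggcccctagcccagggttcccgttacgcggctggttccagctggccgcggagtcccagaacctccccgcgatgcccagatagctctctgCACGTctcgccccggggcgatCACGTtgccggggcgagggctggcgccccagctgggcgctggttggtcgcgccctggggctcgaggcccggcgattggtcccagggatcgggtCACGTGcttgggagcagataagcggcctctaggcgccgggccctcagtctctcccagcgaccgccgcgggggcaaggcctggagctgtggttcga
DDIT4: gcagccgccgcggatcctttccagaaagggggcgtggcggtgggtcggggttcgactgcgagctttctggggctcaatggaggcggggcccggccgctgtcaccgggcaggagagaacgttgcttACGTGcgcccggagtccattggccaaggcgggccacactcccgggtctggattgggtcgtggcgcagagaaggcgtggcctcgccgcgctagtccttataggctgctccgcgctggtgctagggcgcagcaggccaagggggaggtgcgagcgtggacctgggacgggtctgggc
CA9: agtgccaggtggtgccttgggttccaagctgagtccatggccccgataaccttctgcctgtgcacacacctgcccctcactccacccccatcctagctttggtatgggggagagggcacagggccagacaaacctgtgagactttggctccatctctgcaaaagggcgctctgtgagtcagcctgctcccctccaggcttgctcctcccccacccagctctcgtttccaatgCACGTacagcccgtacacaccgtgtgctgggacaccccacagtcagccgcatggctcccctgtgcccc
BNIP3: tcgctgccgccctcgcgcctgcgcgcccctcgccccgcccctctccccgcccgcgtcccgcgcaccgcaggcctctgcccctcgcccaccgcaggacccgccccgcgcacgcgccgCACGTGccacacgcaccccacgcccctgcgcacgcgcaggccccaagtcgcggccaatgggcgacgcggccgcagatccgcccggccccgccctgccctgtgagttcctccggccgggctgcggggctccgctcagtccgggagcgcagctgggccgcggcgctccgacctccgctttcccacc
The PPP1R3C window held 4 such matches, the CITED2 and BNIP3 windows 2 each, the DDIT4 and CA9 windows 1 each, and that of EGLN3, which also rose, 0. Among the 50 HIF targets with a promoter window, 29 (58%) held the element, compared with 26.7% of the 10656 tested genes with a window. Within these targets, the element stood in 9 of 13 that were higher, 3 of 4 that were lower and 17 of 33 that did not pass the test. Over all genes, 22.8% of the windows of higher genes and 29.2% of those of lower genes held it. A match is a description of these letters and not a binding site.

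Total counts ranged from 22322055 to 45977729 over the 6 DMSO libraries, so 1 count corresponded to 0.0218 to 0.0448 CPM (the counts of a gene per 1e+06 counts of its library). Of the 10 fixed markers of mesenchymal glioblastoma cells, 9 were measured, with a summed level of 5056 to 5303 CPM in normoxia and 5135 to 5376 CPM in hypoxia, so that the ranges overlapped. Only 3 of 12 glial lineage markers were measured (SLC1A3, SOX9 and OLIG2), summing to 83.7 to 92.5 CPM in normoxia and 93.5 to 96.6 CPM in hypoxia. By gene, they did not move together, as SOX9 was higher (0.15) and SLC1A3 lower, with a median log2 fold change of −0.35. In 2 of the 3 the hypoxic libraries lay wholly below the normoxic ones. SOX9 was no longer called without normoxic library 1 or hypoxic library 1 or 3. The classical astrocyte marker GFAP was on this list but not among the genes of the deposited, filtered counts. Markers of neurons (2 of 7 measured), immune cells (1 of 10) and endothelial, mural or epithelial cells (4 of 10) summed to at most 7.62, 1.48 and 11.0 CPM in any of the 6 libraries. In bulk RNA, fewer cells of a type and less RNA per cell cannot be told apart.

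The difference between the oxygen levels was broad but small in size. With an adjusted p under 0.05 from edgeR's quasi-likelihood test, 2073 genes were higher (14.1% of 14698 tested) and 2036 were lower (13.9%) in hypoxia, and these are called changed here (28% in all). Only 88 higher (0.599%) and 34 lower genes (0.231%) also differed by more than 2-fold, which defines a differentially expressed gene (DEG). Most of these DEGs were scarce transcripts, as 60 of the 88 and 29 of the 34 had a mean under 2 CPM over the 6 libraries. By annotation, 73 of the higher DEGs were protein-coding and 12 were long non-coding RNAs, compared with 17 and 11 of the lower DEGs. The 3 hypoxic libraries did not overlap with the 3 normoxic ones for 87 higher and 32 lower DEGs, whereas over all genes 22% lay wholly above and 23.3% wholly below. DESeq2 called 44 higher and 10 lower DEGs, and 1311 rather than 2036 genes were lower without normoxic library 2.

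Among 6281 well expressed genes, with a mean of at least 30 CPM, 1112 were higher (17.7%) and 1273 were lower (20.3%). These shares exceed those of all genes, which are therefore a low baseline for lists of mostly well expressed genes. Only 5 of the changed well expressed genes exceeded 2-fold, including KIT, BAMBI and SLC5A3, which rose, and HMOX1, which fell. The others, 1108 higher (17.6%) and 1272 lower (20.3%), are called modest changes (846 lower without normoxic library 2). The median absolute log2 fold change of the changed well expressed genes was 0.21, with quartiles of 0.16 and 0.28, while the median of all genes was near 0 (−0.004). Above 0.5 on the log2 scale there were 71 of these higher genes, below −0.5 there were 38 lower ones, and beyond 0.75 only 15 and 6 remained. The plot of change against level shows this narrowing with rising expression.

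**Figure D1:**
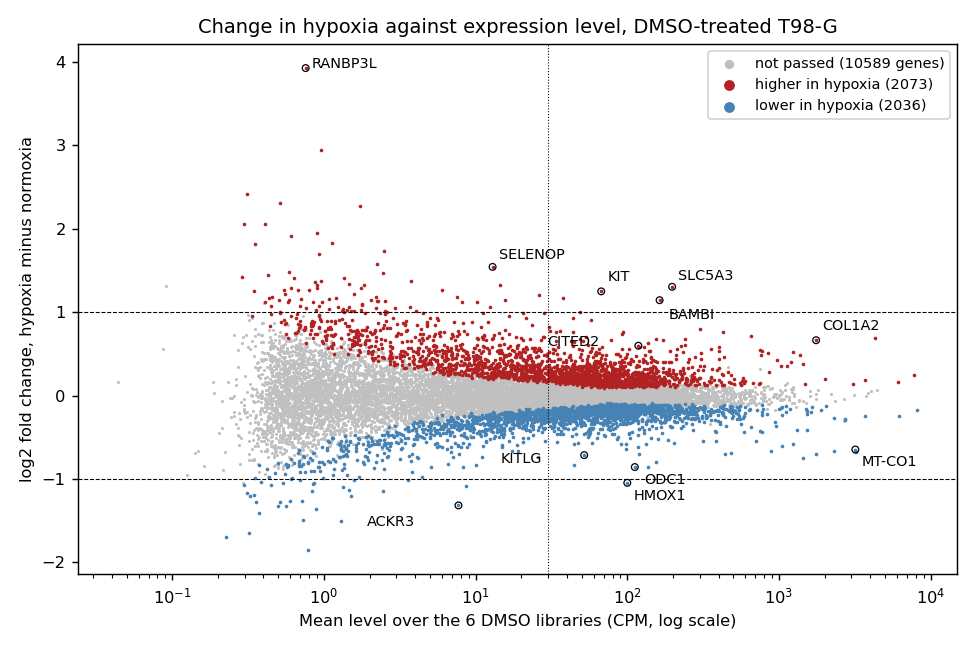
Log2 fold change of each gene (hypoxia minus normoxia, vertical axis) against its mean CPM over the 6 DMSO libraries (horizontal axis, log scale), with changed genes in red (2073 higher) and blue (2036 lower) and others in grey. Dashed lines mark 2-fold and the dotted line 30 CPM. Right of the dotted line only 5 changed genes lie beyond the dashed lines.

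Of 22 measured oxygen sensors and HIF regulators, 4 were higher (18.2%) and 3 lower (13.6%), shares near the 14.1% and 13.9% of all genes, with a median log2 fold change of 0.04. With the experiment as a block in the 6 DMSO libraries alone, 7 were higher. EGLN3, the prolyl hydroxylase that is itself a HIF target (GRCh38 chr14:33924227-34462774), had 46.5, 47 and 48.3 CPM in the normoxic libraries and 73.3, 66.7 and 65.3 in the hypoxic ones. These values did not overlap, and EGLN3 rose by 0.53 on the log2 scale (standard error 0.0544, adjusted p = 3.45e-06). CITED2 (chr6:139371807-139374648) had 94, 97.2 and 91.3 CPM in normoxia and 141, 140.5 and 146 CPM in hypoxia, a rise of 0.60 (standard error 0.0381, adjusted p = 3.56e-08) with all hypoxic libraries above all normoxic ones. The coactivators EP300 and CREBBP rose by 0.32 and 0.19, although CREBBP had an adjusted p of 0.0601 without hypoxic library 1. The transcripts of both alpha subunits fell. HIF1A went from 207 ± 1.96 to 172 ± 13.9 CPM (SD, n = 3), a change of −0.27 on the log2 scale (standard error 0.0513, adjusted p = 0.000821), and EPAS1 from 152 ± 1.6 to 124 ± 9.55 CPM, with −0.30 (standard error 0.0479, adjusted p = 0.000248). EGLN1 (0.17), EGLN2 (−0.31), ARNT (0.12) and VHL (0.06) did not pass the test.

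The HIF target list was split. Of 63 measured targets, 20 were higher (31.7%, against 14.1% of all genes), 6 were lower (9.52%, against 13.9%) and 37 did not pass the test, with a median of 0.05 and no DEG. Without normoxic library 1, or without hypoxic library 3, 3 rather than 6 were lower, but 12 were lower with limma voom and 13 with the experiment as a block in the 6 DMSO libraries alone. The rises were led by PPP1R3C, CITED2, STC1 (a secreted calcium and phosphate regulator) and EGLN3. PPP1R3C had 8.4, 9.19 and 7.73 CPM in normoxia and 13.4, 15.6 and 12.3 CPM in hypoxia (0.70, standard error 0.106, adjusted p = 0.000143), without overlap. STC1 had 113, 119 and 115 CPM in normoxia and 182, 166 and 157 CPM in hypoxia (0.54, standard error 0.0549, adjusted p = 3.39e-06). NDRG1, a stress-responsive differentiation gene, was the most abundant of these and had 619, 649.6 and 646 CPM in normoxia against 920.1, 920.3 and 834 CPM in hypoxia (0.48, standard error 0.0563, adjusted p = 1.23e-05). DDIT4 (chr10:72273919-72276036) had 77.3, 81.3 and 90.3 CPM and 112, 117 and 113 CPM, respectively, and rose by 0.46. For each of STC1, NDRG1 and DDIT4 the lowest hypoxic library lay above the highest normoxic one. Collagen-modifying targets also rose, LOXL2 by 0.42 and PLOD2 by 0.40, as did the mitophagy receptor BNIP3L (0.30), the circadian repressor BHLHE40 (0.31) and the pyruvate dehydrogenase kinases PDK3 (0.36) and PDK1 (0.16).

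Several targets that commonly serve as hypoxia markers did not pass the test or fell. CA9 had 12.2, 11.1 and 11.7 CPM in normoxia and 11.6, 15 and 9.58 CPM in hypoxia, so that the ranges overlapped and the hypoxic values spread on both sides of the normoxic ones (0.06 on the log2 scale, standard error 0.132, adjusted p = 0.787). BNIP3 had 314, 331 and 314 CPM and 307, 323 and 269 CPM (−0.09, adjusted p = 0.403), also with overlap. The glucose transporter SLC2A1 (0.03), the glycolytic enzyme PGK1 (−0.04), the vasodilator peptide ADM (−0.08), the lipid droplet protein HILPDA (−0.19) and the miRNA host MIR210HG (0.04) did not pass the test either. VEGFA, the principal angiogenic factor (GRCh38 chr6:43770184-43786487), fell, with 53.9, 53 and 53.4 CPM in normoxia and 39, 41.8 and 35.3 CPM in hypoxia (−0.47, standard error 0.0562, adjusted p = 1.68e-05). No hypoxic library reached the lowest normoxic level of VEGFA. CA12, another surface carbonic anhydrase, had 140.4, 148 and 139.9 CPM and 87.8, 108 and 82.7 CPM, a fall of 0.62 (standard error 0.0825, adjusted p = 4.21e-05). The urokinase receptor PLAUR (−0.44), LOX (−0.22), P4HA1 (−0.20) and KLF10 (−0.19) made up the other lower targets.

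**Figure D2:**
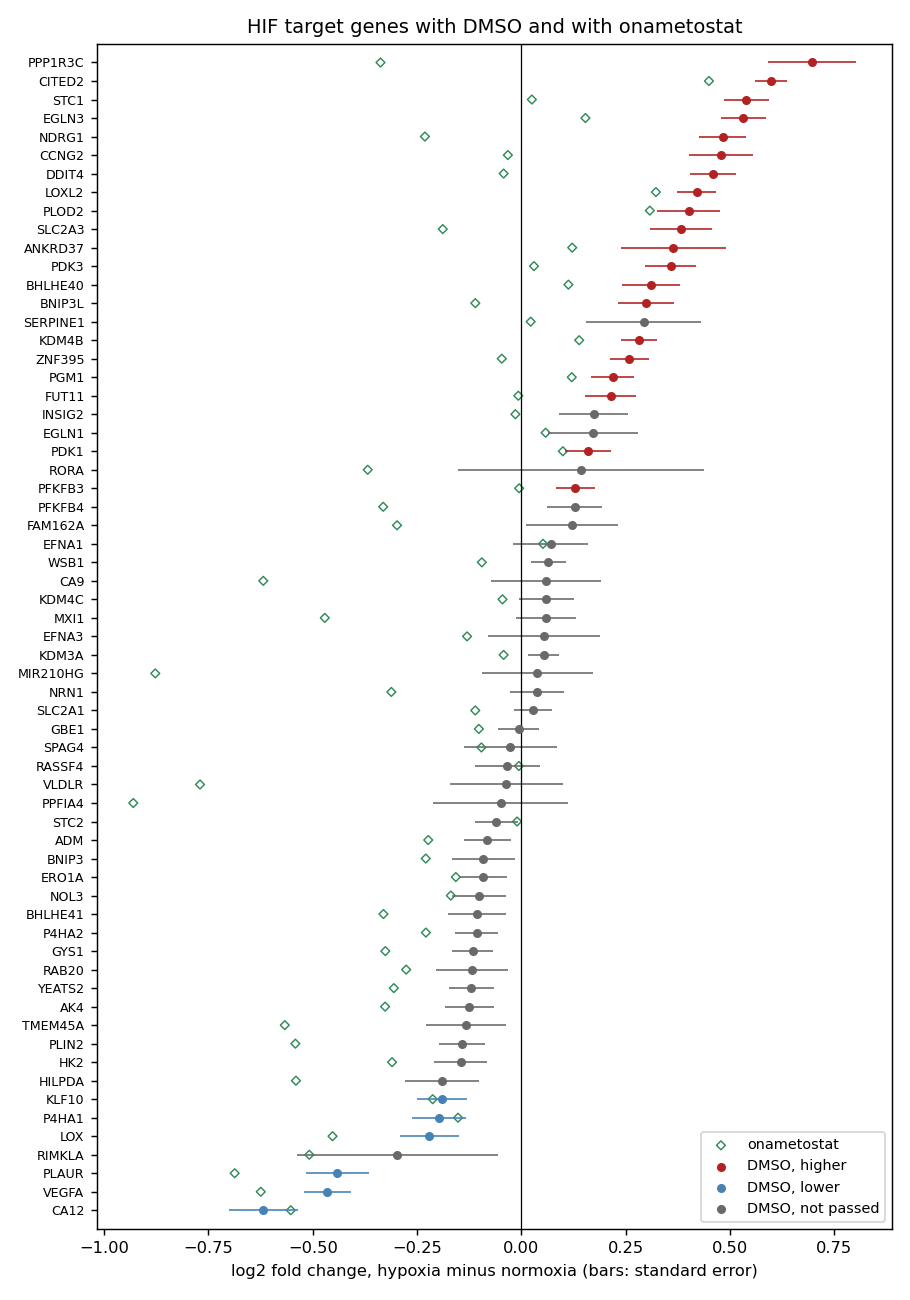
Log2 fold change (hypoxia minus normoxia, horizontal axis) of the 63 measured HIF targets (vertical axis), with circles and standard error bars for DMSO (red higher, blue lower, grey not passed) and open green diamonds for onametostat. With DMSO the values ran from −0.62 (CA12) to 0.70 (PPP1R3C).

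A few glycolytic genes rose slightly, few nuclear genes of the respiratory chain passed the test, and most mitochondrially encoded transcripts fell. Of 23 measured genes of glycolysis and lactate export, 8 were higher (34.8%, against 14.1% of all genes) and 2 lower (8.7%, against 13.9%), with a median of 0.07. However, only 4 were higher when any normoxic library or hypoxic library 1 was left out (5 without hypoxic library 2). With the experiment as a block or with limma voom, 4 rather than 2 were lower. LDHA, which makes lactate, had 3569, 3457 and 3321 CPM in normoxia and 3883, 4073 and 3785 CPM in hypoxia (0.18, standard error 0.0412, adjusted p = 0.00324). The last enzyme of glycolysis, PKM, had 5800.0, 5823 and 5669 CPM and 6567, 6412 and 6400.0 CPM (0.16, standard error 0.0275, adjusted p = 0.00032). Both genes were wholly above their normoxic range, by 1.14-fold and 1.12-fold. The neuronal-type glucose transporter SLC2A3 rose by 0.38 from a lower level (18.8 ± 0.663 to 24.4 ± 1.27 CPM), whereas the lactate carrier SLC16A1 fell by 0.25 on the log2 scale.

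Of 49 nuclear genes for respiratory chain subunits, COX5B and ATP5IF1 were higher, by 0.14 and 0.15, and ATP5MC1 and SDHD lower, by the same sizes, with a median of −0.01. This was 4.08% in each direction, against 14.1% higher and 13.9% lower of all genes. Without 1 DMSO library at a time, 0 to 2 were higher and 0 or 1 lower, whereas limma voom called 9 higher, the 6 DMSO libraries alone 5, and these with the experiment as a block 8. In contrast, 12 of 15 measured transcripts of the mitochondrial genome were lower (80%, against 13.9% of all genes) and none higher, with a median of −0.65. As transcripts of 1 genome, they need not move independently, so their number is not a number of separate observations. Their summed level was 19780, 26300 and 30620 CPM in the normoxic libraries of experiments 1, 2 and 3, and 15040, 18220 and 17870 CPM in the hypoxic ones. The hypoxic library was the lower one in every experiment and the groups did not overlap, although the normoxic libraries differed from each other by more than the hypoxic ones. In fits without 1 library, 8 to 15 of the 15 were lower and the median was −0.80 to −0.48. MT-CO1, a catalytic subunit of cytochrome c oxidase, had 3053, 4029 and 4597 CPM in normoxia and 2315, 2547 and 2592 CPM in hypoxia (−0.65, standard error 0.151, adjusted p = 0.00407). MT-ATP6, a subunit of ATP synthase, fell by 0.75 (standard error 0.168, adjusted p = 0.0029), whereas MT-ND3 (−0.20), MT-RNR2 (−0.30) and MT-ND6 (−0.34) did not pass the test. With the experiment number as a block, MT-RNR2 passed as well (−0.30, adjusted p = 0.0461). Nuclear copies of mitochondrial sequence and the shared reads of the adjoining MT-ATP6, MT-ATP8 and MT-CO3 leave single levels uncertain.

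**Figure D3:**
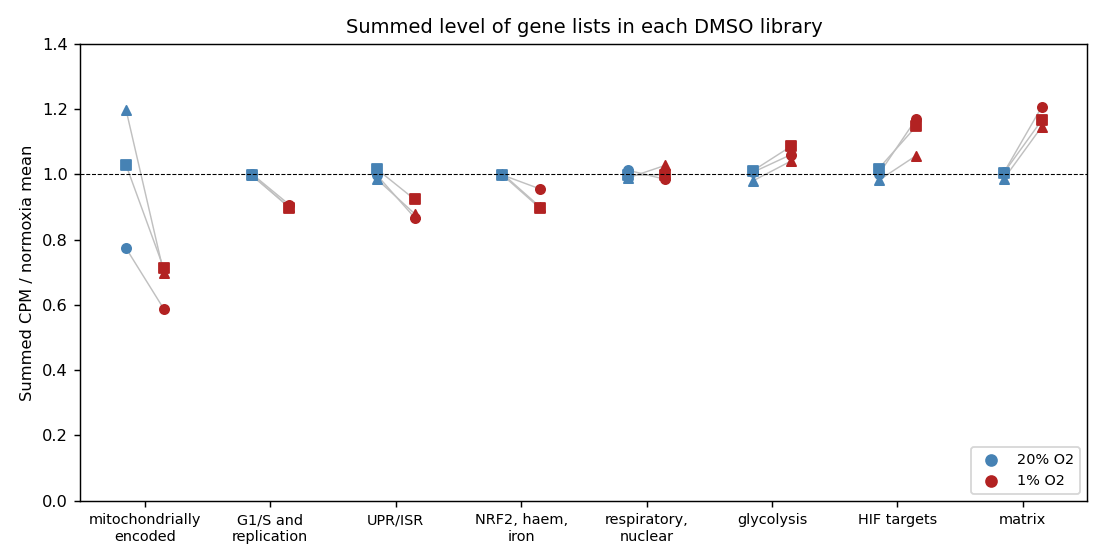
Summed CPM of 8 gene lists in each DMSO library, divided by the normoxic mean of the list (vertical axis), with blue for 20% and red for 1% oxygen, a marker shape and a grey line for each experiment. The mitochondrially encoded sum was lower in hypoxia in each experiment, and the matrix sum was 25300 to 25800 CPM in normoxia and 29370 to 30930 CPM in hypoxia.

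Receptor tyrosine kinases and their ligands moved in both directions, and the stem cell factor receptor and its ligand moved apart. Of 38 measured members, 11 were higher and 11 lower (28.9% each, against 14.1% and 13.9% of all genes), with a median of −0.05. Without normoxic library 1, 7 were higher. KIT, the receptor (GRCh38 chr4:54657267-54740783), had 38.6, 36.9 and 44.5 CPM in the normoxic libraries and 91.8, 86 and 106 CPM in the hypoxic ones, a rise of 1.25 (standard error 0.0867, adjusted p = 7.27e-08). KITLG, its ligand (chr12:88492793-88580851), had 63.5, 65 and 65.1 CPM and 42.9, 38 and 37.7 CPM and fell by 0.71 (standard error 0.0511, adjusted p = 8.92e-08). Neither gene had overlapping groups, which was a condition of the rule that named KIT and which the choice of KITLG by smallest p favours. PDGFRA, the platelet-derived growth factor receptor next to KIT on chromosome 4, rose by 1.95 (standard error 0.27, adjusted p = 5.98e-05) but from only 0.373 ± 0.0559 to 1.44 ± 0.126 CPM. The axon guidance receptor EPHA4 rose by 0.64 from 108 ± 3.52 CPM, and FGF1 rose by 0.74.

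The neurotrophin-3 receptor NTRK3 and the chemokine receptor ACKR3 were among the lower DEGs with a mean of at least 2 CPM and no overlap between the groups. NTRK3 had 4.83, 4.88 and 4.72 CPM in normoxia and 2.27, 2.68 and 2.14 CPM in hypoxia (−1.02, standard error 0.159, adjusted p = 0.000178). Its change was −0.94, under the 2-fold threshold, when hypoxic library 3 was left out. ACKR3, a scavenging receptor for CXCL12, had the larger fall, with 10.8, 11.3 and 11.1 CPM in normoxia and 3.88, 4.97 and 4.26 CPM in hypoxia (−1.32, standard error 0.0877, adjusted p = 4.85e-08). The chemokine CXCL12 itself fell by 0.29. Of 25 measured chemokine, cytokine and NF-kB genes, 4 were higher (16%, against 14.1% of all genes) and 7 lower (28%, against 13.9%), with a median of −0.10. Under the block in the 6 DMSO libraries alone, 11 were lower. The higher ones included CCL2, which attracts monocytes and rose by 0.71 from 14.1 ± 1.1 to 23 ± 4.86 CPM.

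**Figure D4:**
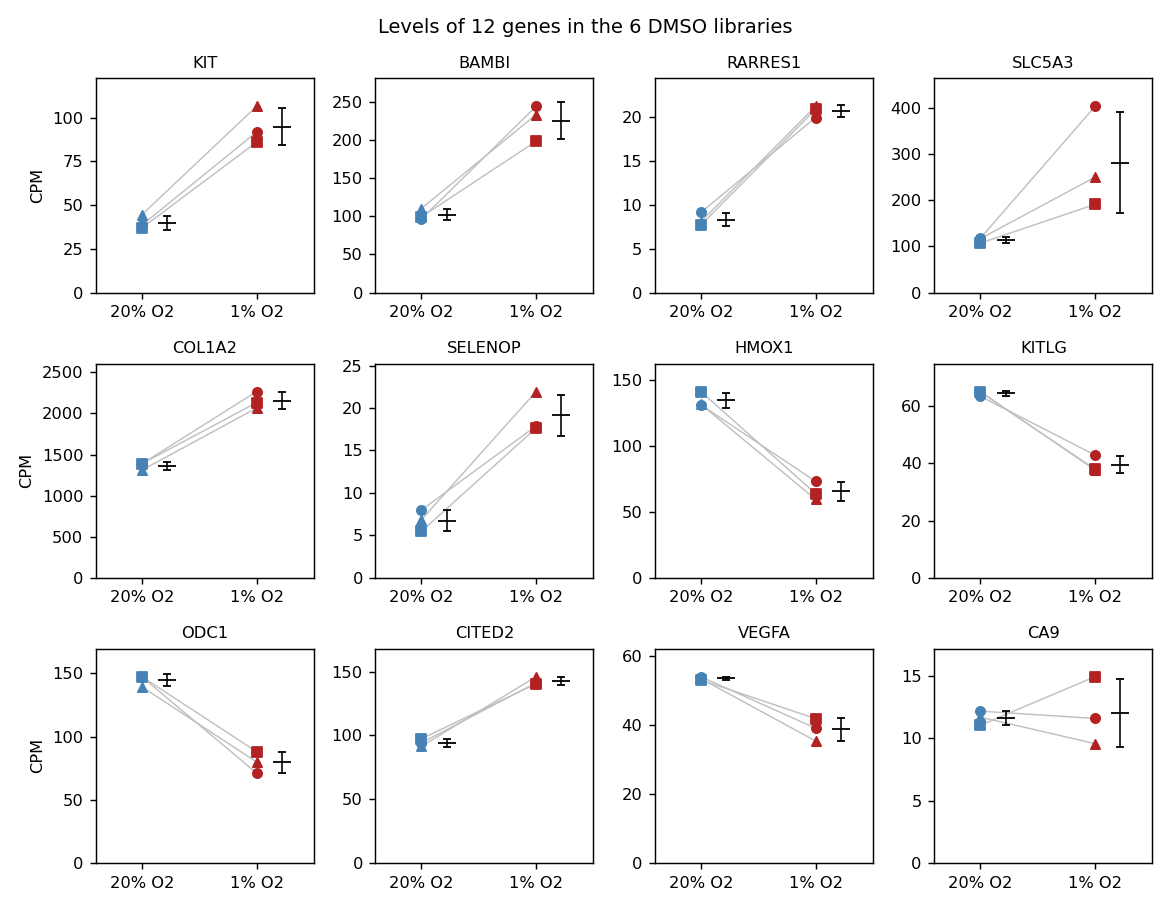
CPM of 12 genes (vertical axes, from 0) in the 3 normoxic (blue) and 3 hypoxic (red) DMSO libraries, with a marker shape and a grey line for each experiment and black bars for the mean and SD. The groups do not overlap for any of these genes except CA9, and SLC5A3 reaches 403 CPM in experiment 1 of hypoxia.

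BAMBI and NOG, both inhibitors of BMP signalling, were DEGs that rose. BAMBI, a decoy receptor of this family (GRCh38 chr10:28677510-28682932), had 96.3, 99 and 110.0 CPM in normoxia and 244, 198 and 233 CPM in hypoxia (1.14, standard error 0.0728, adjusted p = 3.56e-08). NOG, which encodes the secreted BMP antagonist noggin, had 2.79, 2.43 and 2.79 CPM and 6.02, 3.89 and 6.32 CPM (1.02, standard error 0.182, adjusted p = 0.000565), although its change fell under 2-fold in several fits without 1 library (0.85 to 1.23). The BMP receptor BMPR2 rose by 0.56 and the co-receptor TGFBR3 by 0.67, whereas the ligands INHBA and TGFB3 fell by 0.45 and 0.80. The immediate BMP targets ID1 (0.06), ID2 (0.17) and ID3 (−0.01) did not pass the test. Over the list, 9 of 40 measured members were higher (22.5%, against 14.1% of all genes) and 4 lower (10%, against 13.9%), with a median of 0.07.

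Many genes of the extracellular matrix rose. Of 55 measured collagens, integrins and other matrix genes, 26 were higher (47.3%, against 14.1% of all genes) and 7 lower (12.7%), with a median of 0.20. The lower count was 4 without normoxic library 2 or hypoxic library 3. COL1A2, a chain of type I collagen (GRCh38 chr7:94394895-94431227), had 1386, 1387 and 1309 CPM in normoxia and 2267, 2132 and 2066 CPM in hypoxia (0.66, standard error 0.0427, adjusted p = 3.56e-08). The fibril-associated collagen COL12A1 had 513, 475 and 488 CPM and 919, 724 and 787 CPM (0.72, standard error 0.0725, adjusted p = 3.04e-06). Both collagens were high in every hypoxic library, without overlap. The integrin subunit ITGA8 had 31.3, 30.7 and 36 CPM and 65.7, 62.7 and 66.9 CPM, and its change of 0.997 (standard error 0.082, adjusted p = 4.05e-07) stood just under the 2-fold threshold. ADAMTS5, a protease of aggrecan, rose by 1.37 from 2.14 ± 0.39 to 5.38 ± 0.689 CPM, and the protease inhibitor TIMP3 by 0.59 from 321 ± 9.12 to 482 ± 7.2 CPM. The other matrix DEGs were the integrin subunits ITGB4 (1.13) and ITGB8 (1.06, and 0.98 without normoxic library 1) and the matrix protein VIT (1.05, and 0.87 without hypoxic library 3). The basement membrane collagens COL4A1 and COL4A2 went the other way and fell by 0.38 and 0.19, whereas the basement membrane laminin chain LAMB1 rose by 0.38. Among 35 collagen hydroxylases and other oxygen-dependent dioxygenases, 12 were higher (34.3%, against 14.1% of all genes), such as PLOD2, KDM4B and TET2. Lower were 4 (11.4%, against 13.9%), and 2 without normoxic library 1 or 2 or hypoxic library 3. The lower count was 7 with limma voom and 8 with the block in the 6 DMSO libraries alone.

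Several genes of retinoid metabolism and response rose, many of them from low levels. Of 18 measured members, 7 were higher (38.9%, against 14.1% of all genes) and 2 lower (11.1%, against 13.9%), with a median of 0.14. RARRES1, a retinoic acid-responsive membrane protein, had 9.14, 7.69 and 8.08 CPM in normoxia and 20.0, 20.9 and 21.2 CPM in hypoxia (1.33, standard error 0.0832, adjusted p = 3.56e-08). ALDH1A3, which makes retinoic acid, rose by 0.77 from 23 ± 0.196 to 39.1 ± 4.06 CPM. CYP26B1, which degrades it, rose by 1.06 from 8.11 ± 0.409 to 16.8 ± 2.51 CPM, with 0.92 without hypoxic library 3. RARRES1 overlaps MFSD1 and the counting did not use strand, so reads in the shared part leave its level uncertain. SELENOP, the selenium carrier of plasma, which overlaps CCDC152, had 7.96, 5.45 and 6.81 CPM in normoxia and 17.9, 17.6 and 21.9 CPM in hypoxia (1.54, standard error 0.134, adjusted p = 6.83e-07). Of 20 measured selenoproteins, 6 were higher (30%, against 14.1% of all genes) and 2 lower (10%, against 13.9%, and 4 with limma voom). Their median was 0.04, although their summed level was 3334 to 3556 CPM in hypoxia against 3748 to 3912 CPM in normoxia.

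Several genes of haem breakdown, iron handling and glutathione synthesis fell. Of 37 measured genes of the NRF2 programme and of haem or iron handling, 17 were lower (45.9%, against 13.9% of all genes) and 3 higher (8.11%, against 14.1%), with a median of −0.09. The higher count was 5 with DESeq2 or without the shallowest onametostat library, and 6 with limma voom or the 6 DMSO libraries alone, with or without the block. HMOX1, which degrades haem (GRCh38 chr22:35380361-35394214), had 131, 141 and 132 CPM in normoxia and 73.1, 63.9 and 59.5 CPM in hypoxia (−1.05, standard error 0.0561, adjusted p = 7.73e-09), with −0.99 when hypoxic library 3 was left out. The glutathione synthesis genes GCLC and GCLM fell by 0.57 and 0.43, GCLM from 440.2 ± 2.69 to 326 ± 23.9 CPM. The transferrin receptor TFRC had 919, 864 and 885 CPM and 715, 632 and 624 CPM (−0.44, standard error 0.0524, adjusted p = 1.57e-05). FTL, the light chain of the iron store ferritin and one of the most abundant transcripts, fell by 0.25 from 6737 ± 144 to 5666 ± 114 CPM. The hypoxic libraries were below all normoxic ones for each of these genes. The higher members in the fit of all 12 libraries were the aldo-keto reductases AKR1C1 (0.77), AKR1C3 (0.60) and AKR1B1 (0.51). The AKR1C genes are near-identical copies, and reads that map to several of them are not counted, so their levels are uncertain. AKR1B1 had an adjusted p of 0.0710 without hypoxic library 1.

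Stress-response, serine synthesis and growth genes were among the modest falls with the smallest p. Of 39 measured genes of the unfolded protein and integrated stress responses, 22 were lower (56.4%, against 13.9% of all genes) and none higher (median −0.18), with 1 higher under the block in the 6 DMSO libraries alone. PSAT1, an enzyme of serine synthesis, had 119.5, 120.0 and 122 CPM in normoxia and 77.9, 77.1 and 77.1 CPM in hypoxia (−0.64, standard error 0.0358, adjusted p = 1.09e-08). The mitochondrial folate enzyme MTHFD2 had 170.0, 171 and 167 CPM and 123, 119 and 116 CPM (−0.51, standard error 0.0368, adjusted p = 1.06e-07). For both genes the spread within each group was small against the difference, and the groups did not overlap. A choice by smallest p favours both traits. The transcription factors ATF4 and DDIT3 fell by 0.21 and 0.58, and the endoplasmic reticulum chaperone HSPA5 fell by 0.15, as did the heat shock gene HSPA1B (by 0.83). Reads that also map to its near-identical copy HSPA1A are not counted, so the level of HSPA1B is uncertain.

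MYC, a master regulator of growth, had 109, 112 and 109 CPM in normoxia and 70.8, 77.2 and 72.1 CPM in hypoxia (−0.58, standard error 0.0439, adjusted p = 1.76e-07). ODC1, the first enzyme of polyamine synthesis, had 147, 148 and 139.5 CPM and 71.1, 88.1 and 79.9 CPM (−0.86, standard error 0.0576, adjusted p = 5.04e-08). No hypoxic library of either gene reached the normoxic range, which their choice by smallest p favours. The ribosome assembly factors RRP7A, RRP9 and MRTO4 fell by 0.41, 0.58 and 0.40. Other lower genes with the smallest p were SNAI2 (a repressor of epithelial genes, −0.50), F2RL2 (a thrombin receptor, −0.58), CDCA7 (−0.70), NEIL3 (a DNA glycosylase, −0.52), AEN (−0.40) and C19orf48P (−0.47).

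Many genes of G1/S fell, and mitotic genes moved in both directions. Of 41 measured genes of G1/S and DNA replication, 24 were lower (58.5%, against 13.9% of all genes) and none higher, with a median of −0.16, and 15 were lower without normoxic library 2. Their summed level was 5195, 5181 and 5168 CPM in normoxia and 4704, 4656 and 4666 CPM in hypoxia, a small difference with very little spread. GINS2, part of the replicative helicase, fell by 0.35 from 77.9 ± 1.08 to 61.1 ± 0.686 CPM, RRM2, a subunit of ribonucleotide reductase, by 0.24 and the helicase subunit MCM7 by 0.18. Of 40 measured genes of G2, spindle and mitosis, 9 were lower (22.5%, against 13.9% of all genes) and 4 higher (10%, against 14.1%). Most of the 40 (36) were well expressed, and over all well expressed genes 20.3% were lower and 17.7% higher. The lower members of the list included CCNA2 (−0.29) and AURKB (−0.26), and its higher members were MKI67, CENPF, CENPE and ASPM. The higher count was 1 or 2 in fits that left out any normoxic library or hypoxic library 1 or 2. MKI67, the proliferation marker, had 452, 438 and 444 CPM in normoxia and 585, 493 and 508 CPM in hypoxia (0.25, standard error 0.0555, adjusted p = 0.0029). Of 21 measured CDK inhibitors and quiescence genes, 9 were higher (42.9%, against 14.1% of all genes) and 2 lower (9.52%, against 13.9%). The higher ones included CDKN1B (0.23), CCNG2 (0.48) and, from the large changes, TP53INP1. The scarce receptor PDGFRA also stood on this list and was counted among the 9, although it is a receptor tyrosine kinase and no CDK inhibitor. RBL1 and E2F4 were lower by 0.13 each, but at most 1 of them was without any single DMSO library, and CDKN1A (0.05) did not pass the test.

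Histone transcripts moved in both directions. Of 15 measured members of this list, 7 were higher (46.7%, against 14.1% of all genes) and 2 lower (13.3%, against 13.9%). The median was 0.40, with H1-2 at 0.73 and H2BC12 at 0.90. The lower ones, H3-3B (−0.21) and H2AZ1 (−0.14), are abundant, so the summed level of the list was below the normoxic range in hypoxia (1670 to 1684 CPM, against 1696 to 1723 CPM). Transcripts of most replication-dependent histone genes lack a poly(A) tail, so a library of polyadenylated RNA holds only part of them. Of 12 measured telomerase and shelterin genes, 6 were lower (50%, against 13.9% of all genes) and none higher. The lower ones included the telomerase RNA-binding protein DKC1 (−0.24) and TERT, the catalytic subunit. TERT had 1.7, 2.26 and 2.05 CPM in normoxia and 0.959, 0.892 and 0.943 CPM in hypoxia (−1.13, standard error 0.173, adjusted p = 0.000148).

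The myo-inositol transporter SLC5A3 was the most abundant DEG, with hypoxic libraries that differed widely. It had 118, 107 and 117 CPM in normoxia and 403, 191 and 250.1 CPM in hypoxia (1.30, standard error 0.19, adjusted p = 9.24e-05), with 0.95, under the 2-fold threshold, without hypoxic library 1. Its exons overlap those of MRPS6 on the same strand, so reads in the shared part leave both levels uncertain, and MRPS6 rose by 0.76 as well. Other genes of osmolyte handling rose with the same order of hypoxic libraries. NFAT5, the transcription factor of the osmotic response, had 52.8, 49.3 and 51.6 CPM and 87.7, 63.2 and 71.2 CPM (0.52, standard error 0.0885, adjusted p = 0.000349), and AKR1B1, which makes sorbitol, had 727, 682 and 674 CPM and 1234, 783 and 960.2 CPM. In each of them library 1 of hypoxia was highest and library 2 lowest. The scarce transcripts RANBP3L, with 0.0435, 0.0953 and 0.0874 CPM in normoxia and 2.57, 0.489 and 1.26 CPM in hypoxia, and RAB17, with 0.522, 0.595 and 0.524 CPM and 4.32, 1.42 and 2.94 CPM, had this order too. These patterns were picked out after their values were seen. The taurine transporter SLC6A6 rose by 0.46 with little spread (368 ± 8.82 to 506 ± 28.1 CPM). Of 9 measured members of this list, 4 were higher (44.4%, against 14.1% of all genes) and 1 lower (11.1%, against 13.9%).

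Among the other large rises with a mean of at least 2 CPM were ANKFN1 (1.73), TP53INP1, a p53-inducible autophagy protein (1.58), the antisense RNA ZNF295-AS1 (1.47), FILIP1L (1.27), SCN3A, a sodium channel (1.18), HS6ST3, a heparan sulphate sulphotransferase (1.18), and the histone gene H3C6 (1.14, but 0.87 without normoxic library 1). Exons of TP53INP1 and ZNF295-AS1 overlap those of counted genes on the opposite strand, so their levels are uncertain. BMF, a pro-apoptotic member of the BCL2 family, had 15.1, 15.2 and 17.9 CPM in normoxia and 31.9, 34.8 and 43.1 CPM in hypoxia (1.20, standard error 0.0959, adjusted p = 3.04e-07). Of 18 measured BCL2 family genes, 4 were higher (22.2%, against 14.1% of all genes) and 2 lower (11.1%, against 13.9%). Without normoxic library 1 or 2 or hypoxic library 3, 1 was lower. Anti-apoptotic BCL2L1 rose by 0.39 while BCL2 fell by 0.39. The small brain RNA BCYRN1 was a further lower DEG (−1.14, and −0.94 without normoxic library 2), and its repeat-like sequence leaves its reads uncertain.

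The modest rises with the smallest p joined genes of several kinds. The guidance factor SEMA3C had 225, 212 and 227 CPM in normoxia and 392, 349.6 and 408 CPM in hypoxia (0.79, standard error 0.0536, adjusted p = 5.21e-08). The mitophagy genes OPTN and PINK1 rose by 0.48 and 0.64, OPTN from 60.7 ± 0.843 to 84.8 ± 2.12 CPM and PINK1 from 34.9 ± 0.571 to 54.6 ± 3.83 CPM. PLPP1 (a lipid phosphatase, 0.93), LRP1 (an endocytic receptor, 0.74), KRT18 (a keratin, 0.68), SMIM3 (0.68), ALCAM (an adhesion molecule, 0.67), ERRFI1 (an inhibitor of EGFR, 0.56), PDE5A (a cGMP phosphodiesterase, 0.54) and ECM1 (0.45) completed this group. In all of them the 3 hypoxic libraries lay above the 3 normoxic ones, which their choice by smallest p favours. Exons of KRT18, LRP1, OPTN, PINK1, PLPP1, ERRFI1 and PDE5A overlap those of other counted genes. Of 38 measured genes of cholesterol and fatty acid synthesis, 8 were higher (21.1%, against 14.1% of all genes) and 3 lower (7.89%, against 13.9%), with a median of 0.05. Most of the 38 (28) were well expressed, and over all well expressed genes 17.7% were higher and 20.3% lower. Only 3 or 4 of the list were higher without normoxic library 2 or 3 or hypoxic library 1, while 6 were lower with limma voom or the 6 DMSO libraries alone. Of 17 Notch pathway genes, HEY1 (0.41) and MAML1 (0.13) were higher, and HEY2 (−1.27) and LFNG (−0.40) lower. These shares, 11.8% each, were below the 14.1% and 13.9% of all genes. Without normoxic library 1 or 2 or hypoxic library 1 or 3, 1 was higher, and limma voom called 4 in each direction.

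**Figure D5:**
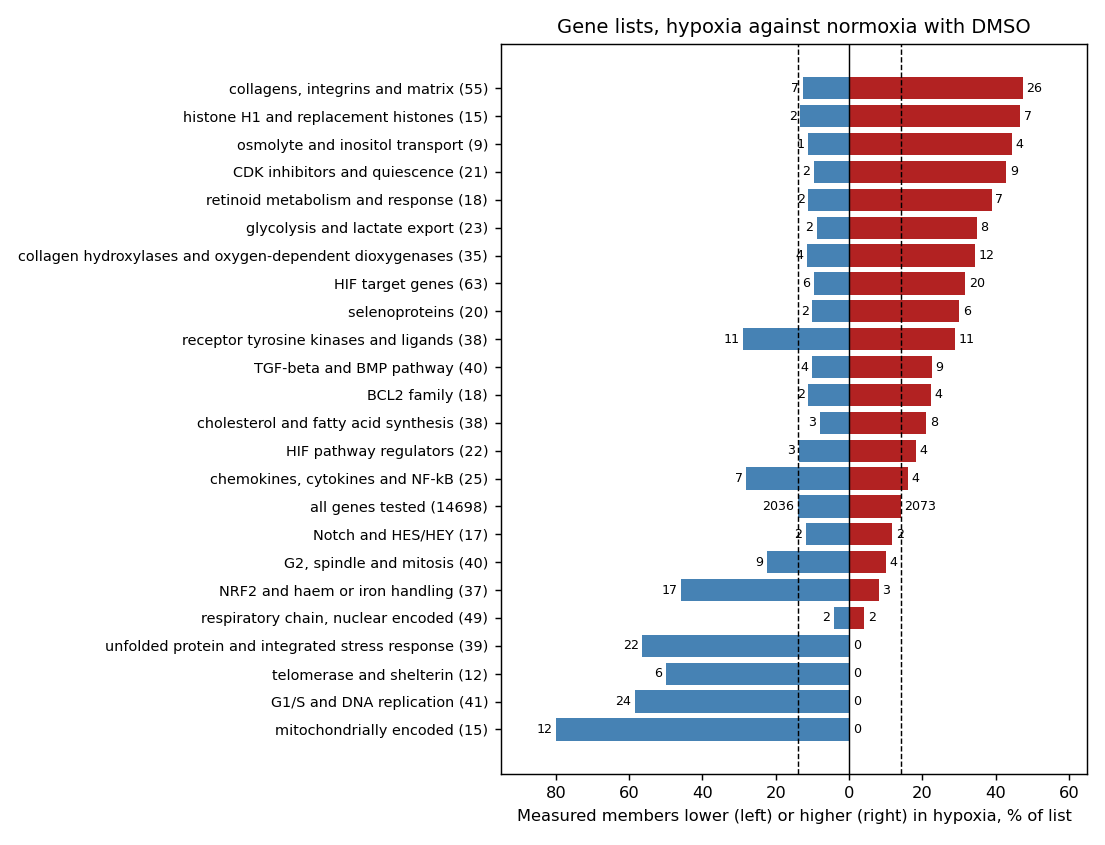
Share of the measured members of each gene list (number in brackets) that were higher (red, right) or lower (blue, left) in hypoxia, in % of the list, with counts at the bar ends. Dashed lines mark the shares over all 14698 genes, 14.1% higher and 13.9% lower.

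The same oxygen levels were also compared in cells treated with onametostat, and this comparison shares no library with that in DMSO. There, 1130 genes were higher (7.69%) and 906 lower (6.16%). Its hypoxic libraries 2 and 3 held few counts (7641280 and 403279) and are called shallow only in this sense. The study lists far more filtered reads than these counts for both, and the reason was not tested. Library 3 had no count for 2978 genes but stayed in the fit of all 12 libraries. Without it, 1265 genes were higher and 1020 lower. Of the 2073 genes higher with DMSO, 89% had the same sign with onametostat, 743 were called higher and 6 lower. Of the 2036 lower genes, 86.2% had the same sign, 569 were called lower and 7 higher. Without the shallowest library these calls in the same direction numbered 806 and 616. Among the modest changes of well expressed genes, 498 of 1108 higher and 413 of 1272 lower genes were called in the same direction, as were 34 of 88 higher and 5 of 34 lower DEGs. KIT (1.07), RARRES1 (1.24), HMOX1 (−0.77) and ACKR3 (−1.08) all changed in the same direction with onametostat.

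Several HIF targets differed between the treatments. With onametostat, 3 of the 63 were higher and 22 lower, with a median of −0.16, while 7.69% of all genes were higher and 6.16% lower. Without the shallowest library 4 were higher and 23 lower (median −0.18). The interaction of oxygenation and treatment, which tests the difference of both responses, called 73 of all genes (0.497%) and 6 of the 63 targets, namely NDRG1, DDIT4, STC1, PPP1R3C, SLC2A3 and PLIN2. The change of each was more positive with DMSO than with onametostat. Without the shallowest library, 12 targets were called. NDRG1 rose with DMSO (0.48) and fell with onametostat (−0.23, adjusted p = 0.0139), while DDIT4 (−0.04) and STC1 (0.02) did not pass the test with onametostat. Conversely CA9, which did not pass the test with DMSO, fell by 0.62 with onametostat, but its interaction did not pass (adjusted p = 0.17). The count of interaction calls was not stable, as it was 1, 2 and 4 without normoxic DMSO libraries 1, 2 and 3 and 183 without the shallowest library.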

How the data were processed

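Polyadenylated RNA of T98-G cells was sequenced from 12 libraries, in 4 groups of 3. The authors deposited whole-number counts per gene, made with fastp (trimming), STAR (alignment), featureCounts in its default mode and a filter on low genes by edgeR. Their label calls these counts normalized. As they are whole numbers with library totals of 403279 to 45977729, they were treated as raw counts. The kit keeps strand but default counting does not use it, and reads that map to several places are not counted. Exons of further named genes, such as LOXL2, DDIT3 and EPHA4, also overlap those of counted genes. GRCh37 and STAR 2.7.10a stand in the submitters' processing notes but GRCh38 in the study's methods, so the build of the counts is not settled. Positions printed here are those of GRCh38 (GENCODE) and promoters those of RefSeq, and 14691 of 14698 gene IDs matched a symbol.

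The counts were tested as deposited with edgeR 4.0.16 (R 4.3.3), using TMM factors, the quasi-likelihood test in 1 fit of all 12 libraries and Benjamini-Hochberg adjustment over all genes. Standard errors are the log2 fold change divided by the root of the F statistic. CPM use TMM-scaled library sizes, and precision follows from totals of 22322055 to 45977729 counts in the DMSO libraries. Means are given ± SD with n = 3. Alternatives used DESeq2 1.42.0, limma 3.58.1 (voom), other scalings, filters and thresholds, the experiment number as a block, and fits without each library. The pipeline was tested on simulated counts. Figures were drawn with matplotlib 3.10.9.

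The titles number 3 experiments, described as independent. Deviations from the group means of libraries with the same number correlated across genes at 0.128, 0.196 and 0.18, and those of other pairs at no more than 0.0336. These correlations are weak and were not tested. Centring each group on its mean also lowers the values of other pairs where those of matching pairs are positive, so pairing was not established. The main fit did not use the experiment numbers.

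Genes were named by these rules: up to 15 DEGs in each direction with the largest changes, a mean of at least 2 CPM and no overlap; the 15 modest changes in each direction with the smallest p; genes named in the study, which are not independent evidence; and members of the lists. For the largest DEGs and the modest changes with the smallest p, absent overlap or small spread came with the choice and is no separate support. The lists and rules were chosen with earlier results of these data known. CA9, PPP1R3C, PLIN2, RANBP3L, RAB17, MRPS6, further list members and the printed promoters were chosen after their values were seen. Some genes that met the rules are not reported here.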

Additional observations from a re-analysis of the deposited data

Results flagged for a closer look

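For 12 of the named genes or HIF targets, the response to oxygen differed between DMSO and onametostat by the interaction test of edgeR, with an adjusted p under 0.05 over all genes. The hypoxic onametostat libraries include 1 of only 403279 counts. The difference is given as the log2 fold change with DMSO minus that with onametostat.

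NDRG1 differed by 0.7132 and was called in all 19 alternatives, with values of 0.65 to 0.77. PPP1R3C differed by 1.034 (12 of 19 alternatives, 0.74 to 1.22), STC1 by 0.5142 (14 of 19), DDIT4 by 0.5018 (12 of 19), SLC2A3 by 0.5708 (10 of 19) and PLIN2 by 0.3985 (8 of 19). All 6 are HIF targets with a more positive change with DMSO.

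Outside the HIF targets, BMF differed by 0.8427 (5 of 19 alternatives), HEY1 by 0.5566 (10 of 19), SMIM3 by 0.4381 (11 of 19) and the laminin chain LAMB1 by 0.3008 (8 of 19). MRTO4 differed by −0.2935 (9 of 19) and the thyroid hormone deiodinase DIO2 by −0.5225 (7 of 19), where MRTO4 fell with DMSO (−0.40) and had −0.11 with onametostat (adjusted p = 0.0603). DIO2 fell with DMSO (−0.31) and had 0.21 with onametostat (adjusted p = 0.0998).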

How the results depend on the processing

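No count or named gene's call reversed, and in no alternative was a changed gene called in the opposite direction. Medians near 0 did change sign: receptor tyrosine kinases reached 0.01 without DMSO in hypoxia replicate 2, the nuclear respiratory chain 0.01 and the BCL2 family 0.001 with library sizes alone, and Notch −0.04 with thinned counts and −0.02 without DMSO in normoxia replicate 2. The number of DEGs depended on filter, tool and threshold: 48 higher and 10 lower with a mean of at least 1 CPM, 44 and 10 with DESeq2, 353 and 186 at a threshold of 1.5-fold, and 15 and 4 at a log2 threshold of 1.5. DESeq2 called 1362 genes higher at any size. At a mean of at least 100 CPM, 398 modest changes were higher and 524 lower. The interaction called 124 genes with DESeq2 and 181 with limma voom. Without 1 library at a time, DEGs numbered 76 to 104 higher and 28 to 48 lower, changed genes 1385 to 2402 and 1311 to 2411, modest changes 753 to 1306 and 846 to 1515, and interaction calls 1 to 183. The cause of these shifts was not tested. With the experiment number as a replicate block, 82 DEGs were higher and 35 lower, 2149 genes were higher and 2144 lower, and 83 had an interaction. Among named genes the block ended the call of SDHD (−0.14, adjusted p = 0.0557) and added 9, including HK2 (−0.15, adjusted p = 0.0499) and MT-RNR2 (−0.30), but changed no other call. DESeq2 ended 10 calls of named genes, scaling by library size alone 5, and fits without 1 DMSO library 10 to 21. Other scalings moved the median of all genes by at most 0.017. The block in the 6 DMSO libraries alone and the fit without both shallow libraries were chosen after seeing the data. Genes under about 2 CPM rest on few counts, and intervals for them were not computed.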
